A study of Mus musculus with 6 samples.

Results

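The comparison set the I60 line, kept on 60 µM hydrogen peroxide (H2O2), against the C40 line, kept on 40 µM H2O2, across every expressed gene. Both lines come from Py2T, an epithelial cell line of a mouse mammary tumour, and both received H2O2 each day for 4 months. The genes described are those with at least 1 CPM (a gene's reads scaled to the size of its library) in at least 2 of the 6 libraries of the study, which kept 11524 of 24454 genes. The question was what separates the 2 treated lines in receptors, matrix and metabolism. A further group, labelled PBS with 0 µM H2O2 and called untreated in the treatment protocol, is given beside them. Each group has 2 libraries, which the study calls biological duplicates. Whether the duplicates were treated apart during the 4 months is not known here, so that p-values measure only the spread between libraries of a group. Each dose is represented by 1 line, and a difference that comes from the dose cannot be told apart from one that arose in a line by itself.

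Epithelial cells hold to each other through E-cadherin, tight junctions and desmosomes, and to the basement membrane through laminin and integrins. In an epithelial-mesenchymal transition, transcription factors of the Zeb, Snail and Twist families repress such genes, and cells take up vimentin, N-cadherin and an interstitial matrix rich in fibronectin and collagens. Py2T is known as a model of this transition. H2O2 is taken up by cells and removed by catalase, glutathione peroxidases and peroxiredoxins.

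Of the 11524 genes, 404 were higher in I60 than in C40 and 660 were lower, which is 3.51% and 5.73% of the genes tested (9.23% in either direction). The call was an adjusted p below 0.05 in limma, a linear model of log2(CPM + 0.5) with Benjamini-Hochberg adjustment over all genes tested. Of these, 370 and 566 differed at least 2-fold, and 43 and 130 at least 8-fold. Folds below are on that log2(CPM + 0.5) scale, which understates the change of genes with few reads. The median log2 difference of I60 minus C40 over all genes was 0.015. Library totals ran from 48113692 to 60260520 reads. The C40 libraries differed more from each other than those of the other groups, with 1022 genes over 2-fold apart, against 217 in I60 and 223 in PBS. Leaving out C40 replicate 1 gave 832 higher and 937 lower genes. Leaving out I60 replicate 1 gave 202 and 249, and leaving out its replicate 2 gave 140 and 280. With PBS replicate 1 or 2 left out the lower genes numbered 411 or 413. The calls made with each library left out in turn included 135 of the higher and 233 of the lower genes.

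**Figure D1:**
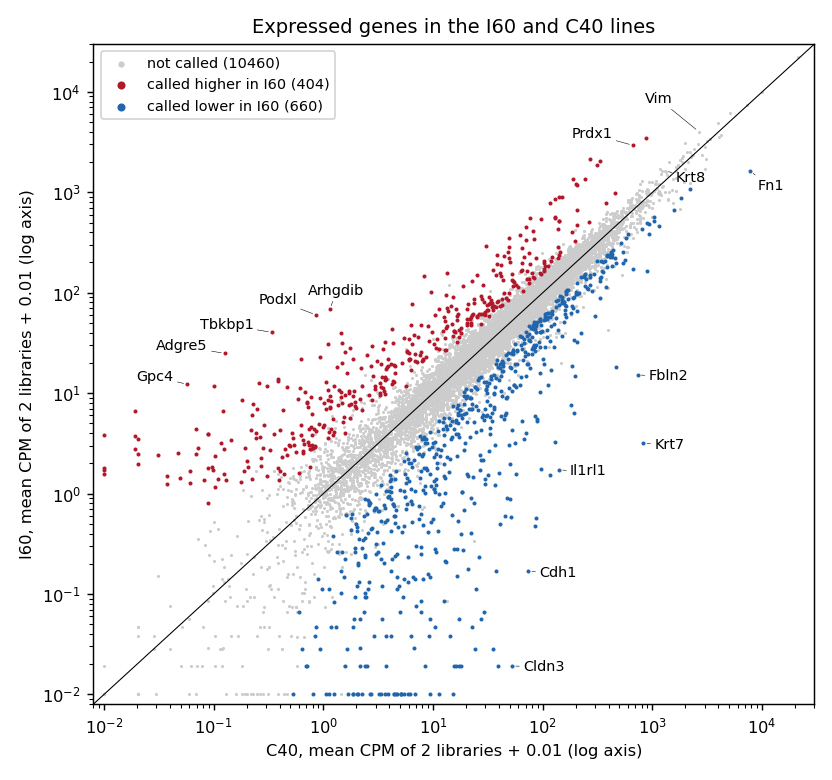
Mean CPM of the 2 I60 libraries (vertical) against the mean of the 2 C40 libraries (horizontal) for the 11524 genes, both plus 0.01 on log axes; red points are the 404 genes called higher in I60, blue points the 660 called lower, grey points the rest, and the line marks equal levels. Blue points reach the floor of the I60 axis, where Cldn3 has 1 read in I60 against 5521 in C40, while Krt8 and Vim lie near the line.

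Epithelial genes were among the largest falls. Krt7, a keratin of simple epithelia (GRCm38/mm10 chromosome 15, 101412403 to 101427806), had 792 and 863 CPM in C40, 3.28 and 3.04 in I60 and 3115 and 3024 in PBS. It was 226-fold lower in I60 than in C40 (log2 difference -7.82, SE 0.15, limma adjusted p = 2.87e-06). Cdh1, which encodes E-cadherin (chromosome 8, 106603350 to 106670247), had 59.7 and 87.8 CPM in C40, 0.187 and 0.129 in I60 and 529 and 537 in PBS. This was a 111-fold fall from C40 to I60 (log2 difference -6.79, SE 0.24, limma adjusted p = 0.000103). For both genes C40 lay between PBS and I60, and no library of 1 group overlapped those of another. The adhesion gene Epcam had 41.9 and 52.5 CPM in C40, 0.730 and 1.07 in I60 and 307 and 409.8 in PBS, and was 34.1-fold lower in I60 (limma adjusted p = 0.00014).

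Of 40 tested genes of the epithelial list, 23 were lower in I60, 3 were higher and 14 did not pass. That is 57.5% lower, against 5.73% of all genes tested, and the median log2 difference was -1.50, against 0.015 over all genes. Another 6 listed genes were below the expression filter. Leaving out single libraries gave 17 to 26 lower genes. The tight junction gene Cldn3 had 29.97 and 75.04 CPM in C40 and 1 read in both I60 libraries together. Its CPM was 5802 times as high in C40 (95% exact interval 1041 to 229191). The splicing regulator Esrp1, which keeps epithelial splice forms, went from 28.02 and 49.5 CPM to 1 read, a ratio of 4244 (761 to 167680.0). Such intervals pool the reads of the 2 libraries of a line and cover counting error only, so that the spread between libraries is left out. The reads also carry no molecular identifiers. Cldn4, another claudin, was 51.3-fold lower (62.6 and 171 CPM in C40, 1.37 and 1.69 in I60). The fall was 53.3-fold for Lsr, a protein of tricellular junctions, and 41.6-fold for the membrane protease gene St14 (limma adjusted p = 0.000111 and 0.000111). The epithelial transcription factor gene Grhl2 fell 13.9-fold, to 0.562 and 0.645 CPM in I60 (limma adjusted p = 0.000239). Ovol1, a factor that holds cells epithelial, had 4.57 and 7.12 CPM in C40 and 0 reads in I60, at least 213-fold lower (the bound takes 3 reads in the 2 I60 libraries together). The claudin gene Cldn7 also had 0 reads in I60, at least 198-fold lower.

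The list did not move as 1 block. Krt8 and Krt18, the keratin pair of simple epithelia, stood at 1534 and 1059 and at 1325 and 1392 CPM in the C40 libraries. In I60 they stood at 1707 and 1574 and 1443 and 1513 CPM, and neither passed (limma adjusted p = 0.399 and 0.761). Jup (plakoglobin) was at 381 and 193 CPM in C40 against 234 and 260.2 in I60 (limma adjusted p = 0.853). The 3 genes higher in I60 are parts of junctions as well. Dsp (desmoplakin, the plaque protein of desmosomes) had 151 and 106 CPM in C40, 582 and 560.3 in I60 and 767 and 671 in PBS, and was 4.49-fold higher (limma adjusted p = 0.000992). Ocln (occludin) had 2.99 and 3.86 CPM in C40, 11.9 and 16.8 in I60 and 40.01 and 50.5 in PBS, a 3.74-fold rise (limma adjusted p = 0.00612) whose call was lost without I60 replicate 2 (limma adjusted p = 0.0718). Pkp2 (plakophilin 2) was 2.09-fold higher (limma adjusted p = 0.0172), a call lost when a PBS or an I60 library was left out (limma adjusted p up to 0.138). For Dsp and Ocln the I60 levels thus lay between those of C40 and PBS. The basal keratin gene Krt14 was 8.77-fold lower (276 and 93.3 CPM in C40, 23.8 and 13.3 in I60), and its call was lost without I60 replicate 1 or 2 (limma adjusted p up to 0.143).

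Promoters of 4 of these genes are shown as examples that hold the letters CACCTG, or CAGGTG on the other strand, an E-box that Zeb and Snail factors are known to bind. They were picked because they hold it. They are the 250 bases before the start of the gene, from RefSeq on GRCm38.p6, 5′ to 3′ on the strand of the gene, with CACCTG and CAGGTG in capitals.
Rab25, a vesicle GTPase of epithelia (chr3:88548280-88548529, minus strand): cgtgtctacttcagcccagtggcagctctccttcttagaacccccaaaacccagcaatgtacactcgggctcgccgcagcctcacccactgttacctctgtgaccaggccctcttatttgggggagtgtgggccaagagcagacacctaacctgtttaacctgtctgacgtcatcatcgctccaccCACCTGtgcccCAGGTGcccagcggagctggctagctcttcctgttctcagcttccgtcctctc
Lsr (chr7:30973470-30973719, minus strand): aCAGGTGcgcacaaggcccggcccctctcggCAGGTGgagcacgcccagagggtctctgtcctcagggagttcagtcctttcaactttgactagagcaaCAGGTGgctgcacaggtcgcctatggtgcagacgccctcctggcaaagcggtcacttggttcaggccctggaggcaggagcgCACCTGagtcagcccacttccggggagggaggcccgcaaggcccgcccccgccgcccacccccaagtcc
Epcam (chr17:87635729-87635978, plus strand): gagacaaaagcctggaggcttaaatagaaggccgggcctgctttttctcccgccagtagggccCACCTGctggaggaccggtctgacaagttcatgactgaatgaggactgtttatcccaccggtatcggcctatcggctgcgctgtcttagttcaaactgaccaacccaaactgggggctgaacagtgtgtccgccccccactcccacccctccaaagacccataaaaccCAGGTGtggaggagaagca
Krt7 (chr15:101412153-101412402, plus strand): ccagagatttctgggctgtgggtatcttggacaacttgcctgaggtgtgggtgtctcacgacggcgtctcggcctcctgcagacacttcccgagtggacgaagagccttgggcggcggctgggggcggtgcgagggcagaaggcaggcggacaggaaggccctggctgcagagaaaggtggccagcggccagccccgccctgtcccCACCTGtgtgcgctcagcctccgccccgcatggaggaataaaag
Rab25 had 20.04 and 29.5 CPM in C40, 0.131 and 0.0737 in I60 and 163 and 187 in PBS, and was 41.2-fold lower in I60 (limma adjusted p = 0.00014). RefSeq gave exactly 1 promoter for 10 of the 23 lower epithelial genes, and 6 of the 10 (60%) held CACCTG or CAGGTG in this window. The other 4, Cldn1, Cldn3, Krt14 and Ovol2, were lower as well and held none. Over all genes tested with 1 promoter, 1056 of 7306 (14.5%) held it. The share was 21.3% of the genes higher in I60 and 19.3% of those lower, so that it was above the share of all genes in both directions. These are matches of letters, binding was not measured, and the part of any factor was not tested.

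Most mesenchymal genes were not called between the lines, but the share called lower was above that of all genes. Of 23 tested genes of the list, 6 were lower in I60 (26.1%, against 5.73% of all genes tested). None were higher (0, against 3.51% of all genes tested) and 17 did not pass. The median log2 difference was -0.63, and the lower genes numbered 10 without C40 replicate 1 and 4 without I60 replicate 1. By edgeR's quasi-likelihood test 0 were higher as well, and 8 lower. At an unadjusted p below 0.05, limma gave 1 higher and 12 lower. Vim (vimentin) had 3055 and 2229 CPM in C40, 3765 and 4286 in I60 and 40.5 and 18.8 in PBS, which did not pass between the lines (limma adjusted p = 0.371). Cdh2 (N-cadherin) had 81.02 and 71.4 CPM in C40 against 40.98 and 46.02 in I60 (limma adjusted p = 0.0759). The repressor genes Zeb1 (39.8 and 44.04 CPM in C40, 31.8 and 43.2 in I60) and Zeb2 (23.9 and 48.6 and 20.3 and 37.7 CPM) overlapped between the lines, with limma adjusted p of 0.871 and 0.776. Snai1, Snai2 and Twist1 did not pass either (limma adjusted p = 0.418, 0.0608 and 0.198). Snai2 was at 1.21 and 4.65 CPM in C40 and 0.169 and 0.405 in I60, so that its libraries did not overlap. At 3.81-fold lower it was past the threshold in edgeR (adjusted p = 0.0347), in DESeq2 (0.00182), with a replicate block in limma (0.0322), with a pseudocount of 0.1 (0.0460), with library weights (0.0451) and without C40 replicate 1 (0.00128). Cdh2 was past it in DESeq2 alone of the alternatives (adjusted p = 0.00298).

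The 6 lower mesenchymal genes included 4 transcription factors. Prrx1 had 74.1 and 96.01 CPM in C40, 5.17 and 6.56 in I60 and 13.1 and 9.97 in PBS, 13.4-fold lower in I60 (limma adjusted p = 0.000312), which put it above PBS in C40 and below PBS in I60. Twist2 was 4.95-fold lower (limma adjusted p = 0.00295), and Tbx3, which had 0 reads in PBS, 6.46-fold lower (limma adjusted p = 0.00267). Sox9 fell 3.61-fold (89.4 and 121 CPM in C40, 23.1 and 34.9 in I60), a call lost without I60 replicate 1 (limma adjusted p = 0.0552). Pmepa1, a gene induced by TGF-beta, was 6.48-fold lower (limma adjusted p = 0.00293). Msn (moesin, which ties actin to the membrane) was 2.06-fold lower, lost without I60 replicate 1 or 2 (limma adjusted p up to 0.0839). In bulk RNA, fewer cells of a type and less RNA per cell cannot be told apart.

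**Figure D2:**
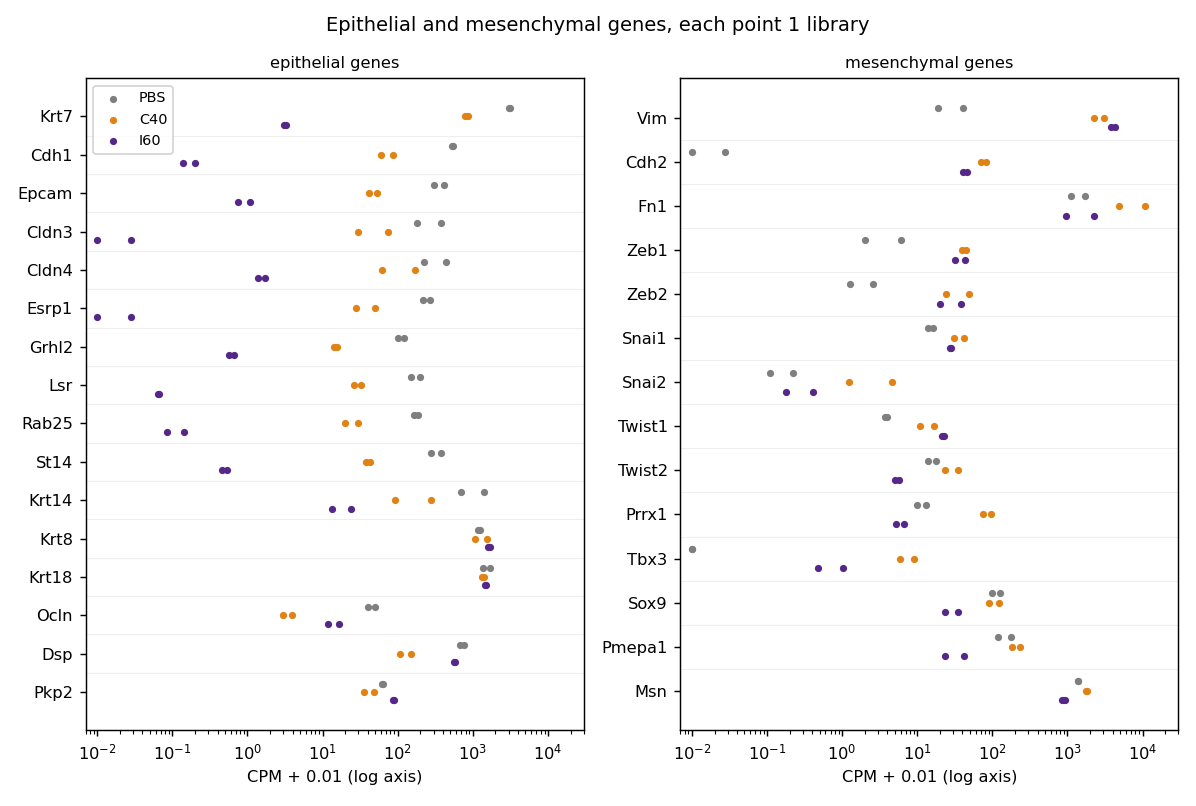
CPM plus 0.01 on a log axis for 16 epithelial genes (left) and 14 mesenchymal genes (right), 1 point per library, grey PBS, orange C40 and purple I60. From Krt7 down to Krt14 the I60 points lie left of the C40 points, while Krt8 and Krt18 stay together and Ocln, Dsp and Pkp2 lie to the right.

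Receptors were called in both directions. Of 213 tested receptor genes, 37 were lower in I60 (17.4%, against 5.73% of all genes) and 19 were higher (8.92%, against 3.51%), while 157 did not pass. The median log2 difference was -0.08. The lower share was 20% for cytokine and death receptors, 20.7% for receptor tyrosine kinases and 41.7% for plexins and related guidance receptors. For integrin subunits it was 17.6%, for adhesion G protein-coupled receptors 30.8% and for nuclear receptors 12%. In the same order, the higher shares were 7.5%, 6.9%, 8.33%, 5.88%, 15.4% and 0%. Single libraries moved the counts of receptor genes. Lower receptors numbered 15 when I60 replicate 1 was left out and 20 when its replicate 2 was. Higher ones numbered 38 without C40 replicate 1, 7 without I60 replicate 1, 6 without its replicate 2, and 12 without PBS replicate 1 or 2.

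**Figure D3:**
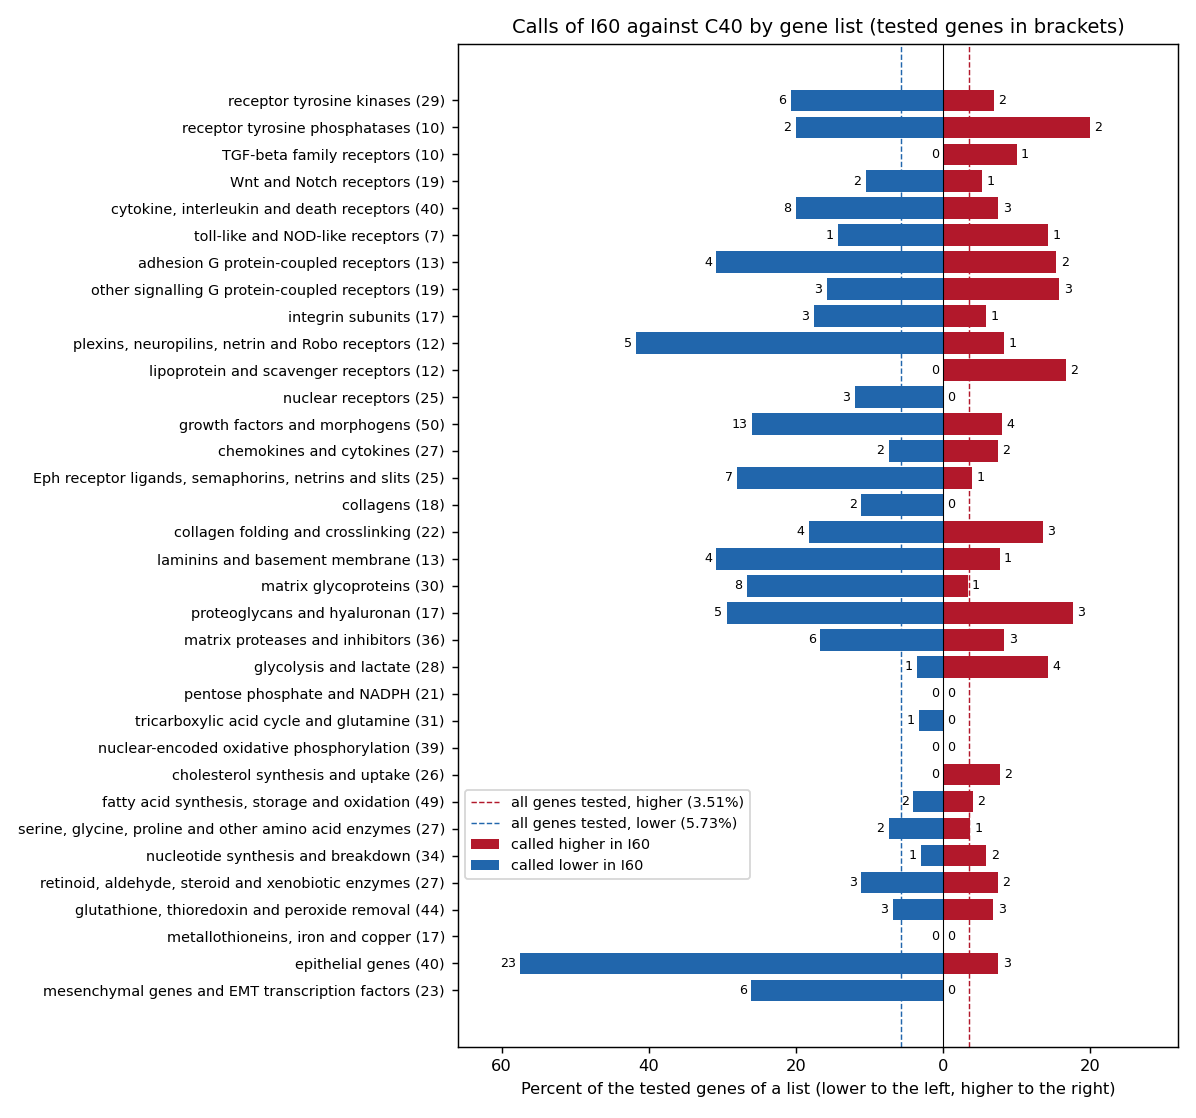
Percent of the tested genes of each list that were called higher in I60 (red, right) or lower (blue, left), with the number of genes at the bar ends and the number tested in brackets; dashed lines give the 3.51% and 5.73% over all genes. The lists shown are those of receptors, ligands, matrix, metabolism and of epithelial and mesenchymal genes; among them the epithelial bar reaches furthest, with 23 of 40 lower, and no metabolic list holds more than 4 calls in a direction.

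Among cytokine and death receptors, 8 of 40 were lower and 3 higher, with 4 lower without I60 replicate 1 or 2, 5 lower without PBS replicate 1 or 2, and 8 higher without C40 replicate 1. Il1rl1, the receptor of interleukin 33 (chromosome 1, 40404864 to 40465418), had 154 and 129 CPM in C40, 1.57 and 1.84 in I60 and 3.098 and 0.830 in PBS. It was 64.1-fold lower in I60 (log2 difference -6.001, SE 0.45, limma adjusted p = 0.000421), so that I60 stood near PBS and C40 alone was high. Il18r1, which binds interleukin 18, had 249 and 139.6 CPM in C40, 5.45 and 7.17 in I60 and 78.6 and 51.03 in PBS, 27.7-fold lower (limma adjusted p = 0.000355). Its ligand gene Il18 went the other way, with 2.099 and 1.64 CPM in C40 and 7.15 and 11.5 in I60 (4.07-fold higher, lost without I60 replicate 2, limma adjusted p = 0.0736). Ngfr, the low-affinity neurotrophin receptor, fell 19.6-fold, from 65.3 and 34.4 to 2.098 and 1.81 CPM (limma adjusted p = 0.000459). Il17re, an interleukin 17 receptor subunit, had 3 reads in I60, and C40 was 130.3 times as high (95% exact interval 44.2 to 635). Tnfrsf10b, the mouse TRAIL death receptor, had 46.9 and 40.7 CPM in C40, 143 and 127 in I60 and 85.1 and 79.97 in PBS, 3.07-fold higher (limma adjusted p = 0.00159). Il15ra, which presents interleukin 15, was 5.61-fold higher (limma adjusted p = 0.00128).

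Of 29 receptor tyrosine kinases, 6 were lower and 2 higher, with 2 lower without I60 replicate 1 and 3 without its replicate 2. Ret, the signalling receptor of GDNF, had 4.63 and 13.3 CPM in C40, 0.131 and 0.166 in I60 and 0.0350 and 0.0332 in PBS, 12.995-fold lower (limma adjusted p = 0.00267). Its ligand gene Gdnf fell as well, from 17.3 and 73.4 to 0.356 and 0.829 CPM (33.97-fold, limma adjusted p = 0.00297), and Gfra2, a co-receptor of that family named after its values were seen, from 381 reads to 1, a ratio of 400.4 (95% exact interval 71.4 to 15854). Ddr2, a receptor kinase for fibrillar collagen, had 34.6 and 106 CPM in C40, 1.74 and 6.17 in I60 and 0.385 and 0.531 in PBS, 15.8-fold lower (limma adjusted p = 0.0104), and lost its call without I60 replicate 1 (limma adjusted p = 0.0825). The ephrin receptor gene Epha1 fell 14.1-fold to 0.300 and 0.239 CPM (limma adjusted p = 0.000239). Mertk, which serves the uptake of dying cells, had 0.229 and 0.202 CPM in C40, 4.27 and 7.83 in I60 and 0.0700 and 0.166 in PBS, 8.81-fold higher (limma adjusted p = 0.00126). Its relative Axl went down 2.06-fold, from 2239 and 2188 to 1109 and 1038 CPM, lost without I60 replicate 1 or 2 (limma adjusted p up to 0.0944). Egfr, Erbb2 and Met did not pass (limma adjusted p = 0.186, 0.975 and 0.539).

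Other receptors of cell contact differed too. The receptor phosphatase Ptprf, which binds cell adhesion partners, had 22.6 and 22.7 CPM in C40, 0 and 0.0737 in I60 and 349 and 437 in PBS, 43.2-fold lower (limma adjusted p = 0.000111). The Notch receptor gene Notch3 fell 11.5-fold, from 8.002 and 5.72 to 0.150 and 0.111 CPM (limma adjusted p = 0.000421), and Notch4 was 3.64-fold higher (0.395 and 0.129 CPM in C40, 2.17 and 2.28 in I60), lost without I60 replicate 1 or 2 (limma adjusted p up to 0.0884). Of 12 plexins and related guidance receptors, 5 were lower and 1 higher, with 2 lower without I60 replicate 1 and 3 without I60 replicate 2. Plxnb1, a semaphorin receptor, was 10.3-fold lower (limma adjusted p = 0.000285), with 21.5 and 19.5 CPM in C40, 1.39 and 1.69 in I60. Nrp2, a co-receptor of semaphorins and VEGF, fell 2.36-fold (limma adjusted p = 0.00263). Of 17 integrin subunits, Itgb4, Itga2 and Itga7 were lower, Itgb3 was higher and 13 did not pass, with 1 lower without I60 replicate 1. Itgb4, the laminin receptor subunit of hemidesmosomes, had 196 and 191 CPM in C40, 32.3 and 35.6 in I60 and 471 and 508 in PBS, 5.64-fold lower (limma adjusted p = 0.000239). Itgb3, a subunit of the vitronectin receptor, had 2.18 and 0.570 CPM in C40 and 8.84 and 12.7 in I60, a 6.57-fold rise lost without I60 replicate 1 or 2 (limma adjusted p up to 0.109). Itga2 and Itga7 were 4.47-fold and 3.01-fold lower, lost on leaving out any library other than C40 replicate 1 for Itga2 (limma adjusted p up to 0.284) and without I60 replicate 1 for Itga7 (0.0989).

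Adhesion G protein-coupled receptors held large differences of both signs, with 4 of 13 lower and 2 higher, and 2 lower without C40 replicate 2, I60 replicate 1 or either PBS replicate. Adgre5 (CD97, chromosome 8, 83723245 to 83741311), known from leukocytes and carcinomas, had 0.104 and 0.129 CPM in C40, 19.5 and 30.2 in I60 and 1.35 and 0.647 in PBS. It was 40.1-fold higher in I60 (log2 difference 5.33, SE 0.33, limma adjusted p = 0.000241), with C40 below PBS and I60 above. Adgrg1, which binds tissue matrix, followed the same order with 0.395 and 0.110 CPM in C40, 3.31 and 3.98 in I60 and 1.19 and 0.880 in PBS (5.59-fold higher, limma adjusted p = 0.00214). Adgra2, a co-receptor of Wnt7 signalling, had 358 and 574 CPM in C40, 12.6 and 23.8 in I60 and 1.86 and 1.76 in PBS, 25.4-fold lower (limma adjusted p = 0.000422). The Wnt7 ligand gene Wnt7a fell 22.8-fold, from 19.4 and 54.3 to 2.08 and 0.313 CPM (limma adjusted p = 0.00531). Wnt7a had 166 and 156 CPM in PBS, so that C40 was below PBS for Wnt7a and above PBS for Adgra2. Celsr1, a planar polarity receptor, was 9.24-fold lower (limma adjusted p = 0.00306).

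Of 10 TGF-beta family receptors 1 was called: Tgfbr3 (betaglycan, which presents TGF-beta) had 0.977 and 0.239 CPM in C40, 9.98 and 12.7 in I60 and 0.0525 and 0.0332 in PBS, 11.2-fold higher (limma adjusted p = 0.00143). The signalling receptors Tgfbr1 and Tgfbr2 did not pass (limma adjusted p = 0.701 and 0.235). Of 25 nuclear receptors 3 were lower and 0 higher, with 1 lower without I60 replicate 1 or 2 (edgeR called 1 higher and 2 lower, and limma at an unadjusted p below 0.05 gave 1 and 7). Rarg, a retinoic acid receptor, was 1.79-fold lower, lost without I60 replicate 1 or 2 (limma adjusted p up to 0.101), and Nr4a2 2.08-fold lower, lost without any 1 library (limma adjusted p up to 0.277). Lrp8, a receptor of reelin and apolipoprotein E, had 169.6 and 64.2 CPM in C40, 931 and 633 in I60 and 118 and 122 in PBS, 7.33-fold higher (limma adjusted p = 0.00712), a call lost without I60 replicate 1 or 2 (limma adjusted p up to 0.086). It lies in a stretch of chromosome 4 described below with the metabolic genes.

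Of 102 tested ligand genes, 22 were lower in I60 (21.6%, against 5.73% of all genes tested) and 7 were higher (6.86%, against 3.51%). The lower share was 26% for growth factors and morphogens and 28% for ephrins, semaphorins, netrins and slits. For chemokines and cytokines it was 7.41%. The higher share was 8%, 4% and 7.41% in these lists. Of 50 tested growth factors and morphogens, 13 were lower and 4 higher (median -0.48), with 5 lower without I60 replicate 1 or 2. Higher ones numbered 2 without any 1 of the PBS and I60 libraries. Dll1, a Notch ligand, was 5.44-fold lower (limma adjusted p = 0.00114) and Nrg1, a ligand of the Erbb receptors, 4.35-fold lower (limma adjusted p = 0.00317). Inhba, which encodes an activin subunit, fell 6.52-fold and Pdgfb 6.61-fold, calls lost without I60 replicate 1 or 2 (limma adjusted p up to 0.0672 and 0.111). Bmp7 (0.187 and 0.276 CPM in C40, 2.43 and 4.64 in I60) and Wnt3 (0 and 0.0736 and 1.48 and 3.54 CPM) were 5.32-fold and 5.28-fold higher (limma adjusted p = 0.00396 and 0.00655). Of 25 ephrins, semaphorins, netrins and slits, 7 were lower and 1 higher, with 1 lower without I60 replicate 1 and 3 without I60 replicate 2. Sema5a, a guidance ligand, had 30.3 and 23.6 CPM in C40, 1.03 and 2.41 in I60 and 0.665 and 0.763 in PBS, 12.9-fold lower (limma adjusted p = 0.00104). Of 27 chemokines and cytokines, 2 were higher and 2 lower, with 5 and 7 without C40 replicate 1 and 0 lower without I60 replicate 1 or a PBS replicate. Ccl2, which draws monocytes, had 20.9 and 5.89 CPM in C40, 71.02 and 68.9 in I60 and 0.0875 and 0 in PBS, 6.02-fold higher in I60 (limma adjusted p = 0.0236), lost when a PBS or an I60 library was left out (limma adjusted p up to 0.173).

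Matrix genes were called lower at 21.3% (29 of 136 tested) and higher at 8.09% (11 of 136), against 5.73% and 3.51% of all genes. The median log2 difference was -0.12. By list, lower and higher shares were 30.8% and 7.69% for laminins and basement membrane and 26.7% and 3.33% for glycoproteins. They were 11.1% and 0% for collagens and 18.2% and 13.6% for collagen folding and crosslinking. For proteoglycans and hyaluronan they were 29.4% and 17.6%, and for proteases and inhibitors 16.7% and 8.33%. Lower matrix genes numbered 17 without I60 replicate 1 or 2. Higher ones numbered 23 without C40 replicate 1, 4 without I60 replicate 1 and 2 without I60 replicate 2.

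Chains of laminin, the main glycoprotein of basement membranes, moved both ways. Of 13 genes of the list 4 were lower and 1 higher, with 2 lower without I60 replicate 1 or 2. Lama3, a chain of epithelial laminin, had 55.2 and 119 CPM in C40, 0.431 and 0.682 in I60 and 315 and 195 in PBS, 77.9-fold lower (limma adjusted p = 0.000281). Lamb3, another chain of epithelial laminin, was 2.07-fold lower (limma adjusted p = 0.0354), at 149 and 227 CPM in C40 against 81.8 and 96.5 in I60, lost on leaving out any library other than C40 replicate 1 (limma adjusted p up to 0.239). Lama5, the chain of the laminins of many basement membranes, went up 2.11-fold, from 447 and 469 to 849 and 1103 CPM, lost without I60 replicate 1 or 2 (limma adjusted p up to 0.136).

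Of 30 matrix glycoproteins, 8 were lower and 1 higher, with 5 higher without C40 replicate 1. Fbln2 (fibulin 2, which joins elastic fibres and basement membrane; chromosome 6, 91212460 to 91272540) had 532 and 933 CPM in C40, 11.9 and 18.5 in I60 and 656 and 606 in PBS, 46.01-fold lower (limma adjusted p = 0.000209). Ltbp2, a fibrillin-binding protein of elastic fibres, had 56.7 and 46.8 CPM in C40, 0.468 and 0.682 in I60 and 1.45 and 0.697 in PBS, 48.7-fold lower (limma adjusted p = 0.000205). Efemp2 (fibulin 4, needed for elastic fibres) had 59.2 and 41.6 CPM in C40, 0.918 and 0.847 in I60 and 3.17 and 2.87 in PBS, 36.3-fold lower (limma adjusted p = 0.00014). In these 3 genes I60 was below C40 without overlap; PBS was high for Fbln2 and low for Ltbp2 and Efemp2. Igfbp3, which binds insulin-like growth factors, had 22.8 and 9.49 CPM in C40 and 1 read in I60, a ratio of 1696 (95% exact interval 304 to 67030.3), and Igfbp7 fell 26.6-fold (limma adjusted p = 0.00015). Fn1 (fibronectin) had 4869.7 and 10677 CPM in C40, 958 and 2269 in I60 and 1119.8 and 1725 in PBS. It was 4.89-fold lower in I60 (limma adjusted p = 0.0355), a call lost on leaving out any library other than C40 replicate 1 (limma adjusted p up to 0.231).

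Collagens themselves were mostly not called. Of 18 tested, 2 were lower, 0 were higher and 16 did not pass, with a median of 0.08. By edgeR 0 were higher too, limma at an unadjusted p below 0.05 gave 2, and 3 were higher without C40 replicate 1. Lower collagens numbered 4 without C40 replicate 2 and 1 with any other single library left out. Col8a1, a short-chain network collagen, had 178 and 214 CPM in C40, 12.7 and 16.9 in I60 and 436 and 533 in PBS, 12.95-fold lower (limma adjusted p = 0.000213). Col12a1 was 3.94-fold lower, lost on leaving out any library other than C40 replicate 2 (limma adjusted p up to 0.271). The fibrillar collagen genes Col3a1 (575 and 122 CPM in C40, 418 and 357 in I60) and Col5a1 (154 and 143 and 142 and 194 CPM) did not pass (limma adjusted p = 0.682 and 0.791). Of 22 genes that fold and crosslink collagen, 4 were lower, 3 were higher and 15 did not pass, with 0 higher without I60 replicate 1 or 2 and 5 without C40 replicate 1. P3h3, a prolyl 3-hydroxylase, was 7.09-fold lower (limma adjusted p = 0.00196), with 15.7 and 12.5 CPM in C40, 1.07 and 2.16 in I60, and the lysyl oxidase relative Loxl3 8.56-fold lower (limma adjusted p = 0.00135). P4ha1, a prolyl 4-hydroxylase subunit, went up 2.43-fold, lost without I60 replicate 1 or 2 (limma adjusted p up to 0.15).

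Among 17 proteoglycan and hyaluronan genes, 5 were lower and 3 higher, with 3 lower without a PBS or an I60 replicate. Gpc4, a glypican that holds growth factors at the membrane (chromosome X, 52051007 to 52164923), had 0.0208 and 0.0736 CPM in C40, 11.2 and 13.3 in I60 and 0 and 0 in PBS. It was 23.2-fold higher (log2 difference 4.54, SE 0.23, limma adjusted p = 0.00014) and rested on 5 reads in C40. Sulf2, which trims sulfate from heparan sulfate chains, had 2.04 and 0.809 CPM in C40, 38.9 and 40.6 in I60 and 3.01 and 3.02 in PBS, 22.1-fold higher (limma adjusted p = 0.000422). A carrier of heparan sulfate and an enzyme that edits it thus differed in 1 direction, while Sdc1 (syndecan 1) was 1.71-fold lower, lost on leaving out any library other than C40 replicate 2 (limma adjusted p up to 0.215). The small leucine-rich genes Dcn (decorin) and Bgn (biglycan) were 5.899-fold and 4.67-fold lower (limma adjusted p = 0.00113 and 0.00348). Of 36 proteases and inhibitors, 6 were lower and 3 higher, with 2 lower without I60 replicate 1 or 2 and 0 higher without its replicate 2. Adam12, a membrane metalloprotease, had 16.5 and 58.6 CPM in C40, 0.131 and 0.184 in I60 and 27.9 and 42.2 in PBS, 48.3-fold lower (limma adjusted p = 0.00126). Plat, the tissue plasminogen activator, had 17.001 and 9.199 CPM in C40, 72.6 and 119 in I60 and 29.3 and 20.6 in PBS, 7.18-fold higher (limma adjusted p = 0.00406), lost without I60 replicate 2 (limma adjusted p = 0.0548). Adamts4, which cuts aggrecan and versican, was 4.19-fold higher, also lost without I60 replicate 2 (limma adjusted p = 0.0789).

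**Figure D4:**
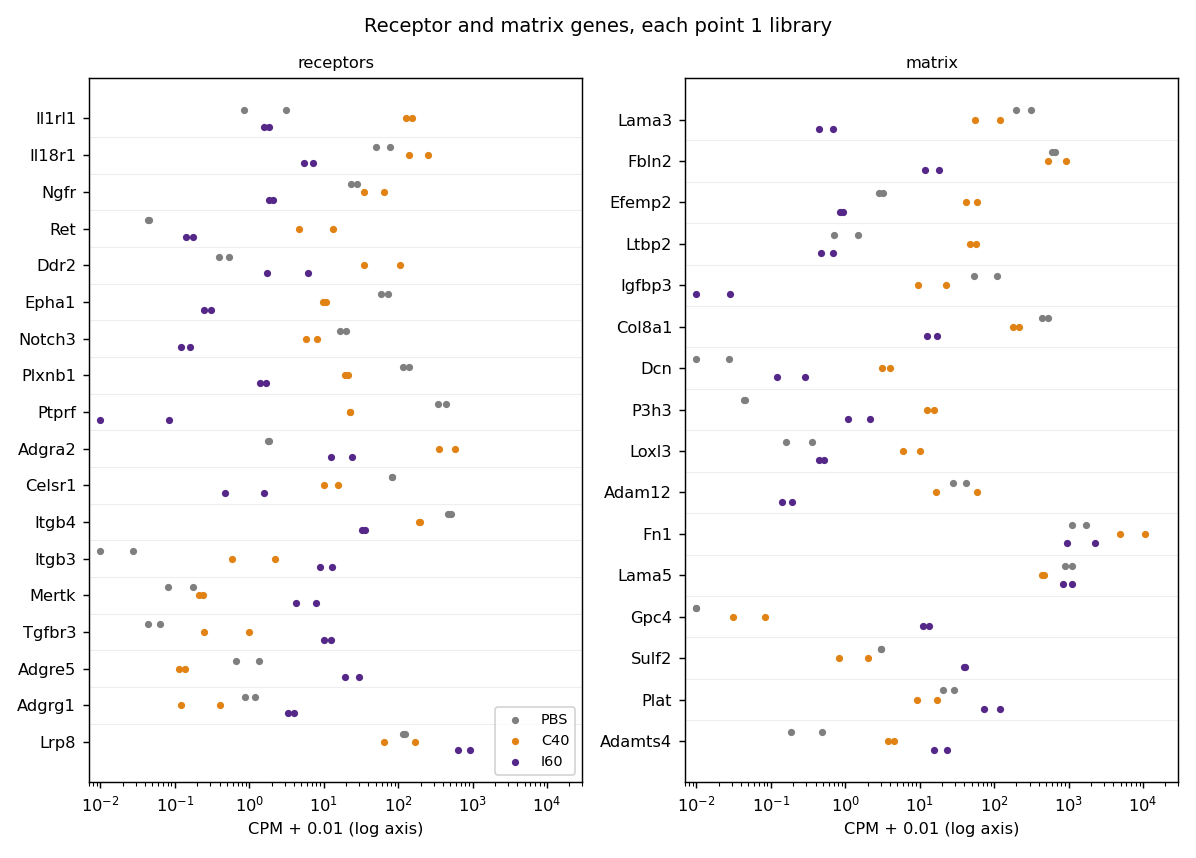
CPM plus 0.01 on a log axis for 18 receptor genes (left) and 16 matrix genes (right), 1 point per library, grey PBS, orange C40 and purple I60. From Il1rl1 to Itgb4 and from Lama3 to Fn1 the I60 points lie left of the C40 points, and from Itgb3 to Lrp8 and Lama5 to Adamts4 to the right.

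Metabolic genes were called about as often as genes at large. Of 343 tested, 16 were higher in I60 (4.66%, against 3.51%), 13 were lower (3.79%, against 5.73%) and 314 did not pass, with a median of 0.03. The higher genes numbered 51 without C40 replicate 1, 8 without I60 replicate 1 and 4 without I60 replicate 2. The lower ones numbered 7 without either I60 replicate and 8 without either PBS replicate. The oxidative phosphorylation list does not hold every subunit: Uqcrh of complex III, called higher and named below, is not on it. Whole lists held no call by limma or by edgeR. These were 0 of 39 nuclear-encoded oxidative phosphorylation genes, 0 of 21 pentose phosphate and NADPH genes and 0 of 17 metal-handling genes. At an unadjusted p below 0.05 in limma, 3, 4 and 3 of them differed in either direction. Leaving out C40 replicate 1 made 6, 4 and 1 of them higher.

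Glycolysis had the largest median among the metabolic lists. Of 28 genes, 4 were higher (14.3%, against 3.51% of all genes tested), 1 was lower (3.57%, against 5.73%) and 23 did not pass. The median log2 difference was 0.58, against 0.015 over all genes. The 4 are Pfkp and Pfkm (phosphofructokinases), Hk1 (hexokinase 1) and Pdk1 (which restrains pyruvate dehydrogenase). Pfkp had 129.7 and 147 CPM in C40, 361 and 499 in I60 and 33.95 and 51.5 in PBS, 3.07-fold higher (limma adjusted p = 0.00906), and Pdk1 18.3 and 15.6 CPM in C40, 47.4 and 75.4 in I60 and 29.2 and 48.2 in PBS, 3.47-fold higher (limma adjusted p = 0.016). Both calls were lost without I60 replicate 2 (limma adjusted p = 0.0956 and 0.135). Hk1 was 2.36-fold higher, lost without I60 replicate 1 or 2 (limma adjusted p up to 0.0988), and Pfkm 2.35-fold, lost when a PBS or an I60 library was left out (limma adjusted p up to 0.164). None of the 4 calls held in every fit that left out 1 library, and the list had 0 higher genes without I60 replicate 2 and 7 without C40 replicate 1. Ldha (lactate dehydrogenase) and the glucose transporter Slc2a1 were 1.57-fold and 1.57-fold above C40 and did not pass (limma adjusted p = 0.15 and 0.131).

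Lipid and amino acid genes differed singly. Fads2, the delta-6 desaturase of polyunsaturated fatty acids, had 77.7 and 36.5 CPM in C40, 1.67 and 1.46 in I60 and 120.3 and 197 in PBS, 26.1-fold lower (limma adjusted p = 0.000651). Lipg, an endothelial-type lipase, fell 3.26-fold (limma adjusted p = 0.0016), and Mgll, which splits monoglycerides, rose 4.62-fold, lost without I60 replicate 1 or 2 (limma adjusted p up to 0.115). Gatm, the first enzyme of creatine synthesis, had 10.8 and 10.3 CPM in C40, 1.22 and 1.197 in I60 and 54.2 and 47.8 in PBS, 6.49-fold lower (limma adjusted p = 0.000582). Cbs, which starts the transsulfuration of homocysteine, had 1 read in C40 and 2.25 and 3.28 CPM in I60, a ratio of 284 (95% exact interval 50.5 to 11238). Ampd3, an AMP deaminase, had 11.8 and 9.07 CPM in C40, 61.1 and 58.4 in I60 and 21.001 and 19.3 in PBS, 5.55-fold higher (limma adjusted p = 0.000761), with C40 below PBS and I60 above. Entpd3, an ectonucleotidase, was 14.1-fold lower (limma adjusted p = 0.000387). Crabp2, which carries retinoic acid to its receptor, fell 6.54-fold, from 44.1 and 38.6 to 5.26 and 6.58 CPM (limma adjusted p = 0.00126), and Aldh7a1 3.25-fold (limma adjusted p = 0.003). Cpt2, the inner membrane carnitine transferase of fatty acid oxidation, had 77.8 and 45.2 CPM in C40, 363 and 383 in I60 and 19.6 and 21.3 in PBS, 6.24-fold higher (limma adjusted p = 0.00126). Of 26 genes of cholesterol synthesis and uptake, 2 were higher (7.69%, against 3.51% of all genes tested) and 0 lower (against 5.73%). By edgeR 1 was higher and 0 lower, and at an unadjusted p below 0.05 in limma 2 and 1. Without C40 replicate 1, 9 were higher, and 0 were without I60 replicate 2. The C40 libraries stood apart on that list, with a median of -1.11 for replicate 2 minus replicate 1.

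Of 44 genes of glutathione, thioredoxin and peroxide removal, 3 were higher, 3 were lower and 38 did not pass (median -0.11), with 1 lower without a PBS or an I60 replicate, 5 lower without C40 replicate 2, 6 higher without C40 replicate 1 and 1 higher without I60 replicate 2. On this list 6.82% were higher and 6.82% lower, against 3.51% and 5.73% of all genes tested. Prdx1, a peroxiredoxin that removes H2O2, had 889 and 439 CPM in C40, 2909 and 2967 in I60 and 483 and 441 in PBS. It was 4.698-fold higher in I60 (limma adjusted p = 0.00559). Its call was lost without I60 replicate 1 or 2 (limma adjusted p up to 0.0674). Cat (catalase) stood at 59.3 and 35.8 CPM in C40 against 47.8 and 52.3 in I60 (limma adjusted p = 0.848). The glutathione transferase genes moved both ways: Gstk1 was 5.39-fold higher (limma adjusted p = 0.00267), Gstt1 4.91-fold lower (limma adjusted p = 0.00344), and Mgst1 5.26-fold lower, the last lost when a PBS or an I60 library was left out (limma adjusted p up to 0.212). Hmox1, Txnrd1 and Gclc did not pass (limma adjusted p = 0.146, 0.766 and 0.743).

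Of the 16 higher metabolic genes, 4, Prdx1 and Cpt2 among them, and the receptor gene Lrp8, lie in 2 stretches of chromosome 4 where nearly every expressed gene was higher. The stretches, and the genes named in them, were found after the values were seen, as runs of at least 6 called genes with at most 2 uncalled neighbours in a row. By the same rule 4 runs of lower genes were found, on chromosomes 1, 9, 18 and 19, with 6, 6, 26 and 6 called genes of 8, 10, 28 and 10 tested. That of chromosome 18 is mostly gamma protocadherins, that of chromosome 19 holds Efemp2 and Ovol1, and that of chromosome 9 Loxl1, Sema7a and Neo1. Of their calls 0, 0, 0 and 2 held with each library left out in turn. The first (GRCm38/mm10 chromosome 4, 106315980 to 108943324, Usp24 to Rab3b) held 34 tested genes, of which 32 were higher, with a median log2 difference of 2.45. The second (115996668 to 116821508, Faah to Hpdl) held 25, of which 24 were higher, with a median of 2.31. The median gene of the first stretch stood at 56.6 and 44.1 CPM in C40, 238 and 276 in I60 and 23.9 and 23.6 in PBS. In the second it stood at 38.0 and 25.5, 201 and 198, and 15.2 and 16.3 CPM. The median gene was thus highest in I60, with C40 between it and PBS. The genes are of unlike function: Uqcrh (complex III of respiration) was 7.86-fold higher than in C40 and lost its call without I60 replicate 1 or 2 (limma adjusted p up to 0.051), Tut4 (a uridyl transferase) was 9.16-fold higher (limma adjusted p = 0.000624), and Mutyh (oxidized-base repair) 5.05-fold higher (limma adjusted p = 0.00238).

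Together the stretches held 56 of the 404 higher genes (13.9%) in 0.512% of the genes tested. Outside them 348 genes were higher, 3.04% of the other genes, and the higher metabolic genes numbered 12. Of the 20 expressed genes between the stretches 1 (Trabd2b) was higher, and the 20 before and the 20 after held 0 higher, with medians of 0.07, 0.07 and -0.08. Within the stretches Acot11 was 5.34-fold lower (lost when a PBS or an I60 library was left out, limma adjusted p up to 0.145), and Slc1a7 and Tspan1 were not called. Gene copy number was not measured here, and its part in these levels was not tested. Among the 32 and 24 calls, 25 and 12 held with each library left out in turn.

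**Figure D5:**
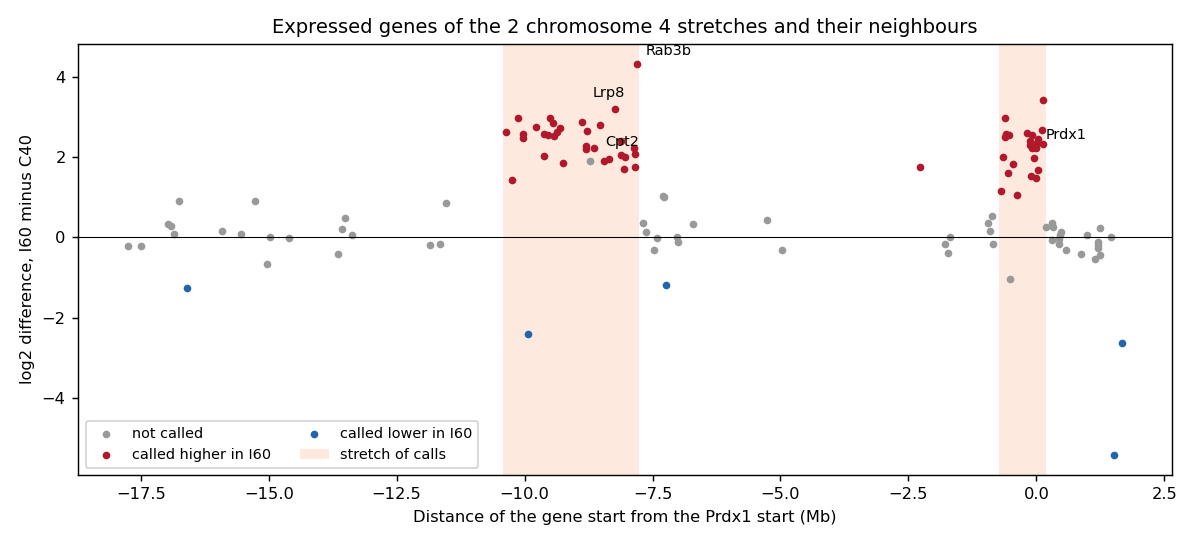
Log2 difference of I60 minus C40 (vertical) for the expressed genes of the 2 chromosome 4 stretches (shaded) and their neighbours, by distance of the gene start from the Prdx1 start in megabases; red is called higher, blue called lower, grey not called. Red points fill the shaded stretches at about 1 to 4 on the log2 scale, and genes outside scatter around 0.

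The largest rises outside those themes had few partners in the lists. Tbkbp1, which binds the kinase TBK1 (chromosome 11, 97136171 to 97151506), had 0.291 and 0.368 CPM in C40, 41.7 and 38.8 in I60 and 0.140 and 0.133 in PBS, 49.2-fold higher (log2 difference 5.62, SE 0.23, limma adjusted p = 0.000111). Podxl (podocalyxin, an anti-adhesive sialomucin; chromosome 6, 31519493 to 31563937) had 0.831 and 0.865 CPM in C40, 62.5 and 57.5 in I60 and 0.0175 and 0.0166 in PBS, 44.8-fold higher (log2 difference 5.49, SE 0.22, limma adjusted p = 0.000111). Arhgdib, an inhibitor of small GTPases best known in blood cells, had 1.08 and 1.196 CPM in C40, 69.5 and 67.7 in I60 and 0.350 and 0.0664 in PBS, 42.2-fold higher (limma adjusted p = 0.00014). The GTPase-activating protein gene Arap3 was 19.6-fold higher (limma adjusted p = 0.00031) and the death-associated kinase gene Dapk1 18.1-fold higher (limma adjusted p = 0.000639), with 11.2 and 5.17 CPM in C40, 152 and 142 in I60. Sbk3, a kinase gene, was 20.4-fold higher (limma adjusted p = 0.000287). In all of these genes the I60 libraries lay above every other library of the study.

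Among called genes, 31 had 0 reads in I60 and 4 had 0 reads in C40. The 4 are Fgf10, Iqgap2, Scel and Zfp518b, named after their values were seen. Scel, a gene of the cornified envelope, had 2.397 and 5.31 CPM in I60 and was at least 132-fold higher there. With at least 5 CPM in both libraries of the other line as the limit, 5 genes had 0 reads in I60 and 0 genes had 0 reads in C40. Cpa4, a secreted carboxypeptidase (chromosome 6, 30568369 to 30592418), had 12.8 and 17.7 CPM in C40 and was at least 553-fold lower in I60. The membrane protease gene Tmprss4, Ckap4 (a palmitoylated membrane receptor) and Lysmd2 were at least 328-fold, 246-fold and 219-fold lower. Ckap4 and Lysmd2 were low in PBS as well (0.560 and 0.548 and 0.893 and 0.697 CPM). With 1 to 3 reads in the lower line and at least 2 CPM in the other, 21 genes were low in I60 and 6 in C40.

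S100a14, a calcium-binding protein gene of epithelia, was 88.2-fold lower (limma adjusted p = 0.000124), with 65.1 and 106 CPM in C40, 0.300 and 0.626 in I60. The surface protein gene Cdcp1 had 22.8 and 46.9 CPM in C40 and 2 reads in I60, a ratio of 1917 (95% exact interval 530.4 to 15837).

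The actin and myosin list was split, with 14.3% of its genes higher and 14.3% lower, against 3.51% and 5.73% of all genes tested. Of 21 tested genes, Tpm2, Mylk and Flnc were higher, Myh10, Myh14 and Tpm1 were lower and 15 did not pass, with 1 lower without I60 replicate 1 or 2. Tpm2, a tropomyosin, had 11.3 and 7.800 CPM in C40, 104 and 99.3 in I60 and 62.8 and 53.3 in PBS, 10.3-fold higher (limma adjusted p = 0.000299), with C40 below PBS and I60 above. Mylk, the kinase that activates myosin, was 5.94-fold higher (limma adjusted p = 0.0032), and Flnc (filamin C) 3.82-fold higher, lost without I60 replicate 1 or 2 (limma adjusted p up to 0.167). Myh10, a non-muscle myosin, was 2.88-fold lower (limma adjusted p = 0.00294). Of 14 Hox genes, which set position along the body axis, Hoxa7, Hoxa10 and Hoxb8 were lower and Hoxc9 higher. That is 21.4% lower and 7.14% higher, against 5.73% and 3.51% of all genes tested. Hoxb8 had 6.78 and 4.99 CPM in C40, 0.0562 and 0.184 in I60 and 0 and 0 in PBS (10.2-fold lower, limma adjusted p = 0.000421) and Hoxc9 0.624 and 0.442 CPM in C40, 2.996 and 3.02 in I60 and 0 and 0 in PBS (3.41-fold higher, limma adjusted p = 0.00344), and both had 0 reads in PBS.

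Growth and stress lists held few calls, apart from the interferon and antigen presentation list. The interferon and antigen presentation list had 13.6% lower and 9.09% higher, against 5.73% and 3.51% of all genes tested. Of 33 cell cycle genes 0 were called by limma or edgeR (1 in each direction at an unadjusted p below 0.05), with 6 higher without C40 replicate 1 and 2 lower without C40 replicate 2. Of 38 ribosomal protein genes 0 were called by limma or edgeR, and 1 was lower at an unadjusted p below 0.05. On the p53 list, limma at an unadjusted p below 0.05 gave 8 higher and 1 lower. There edgeR called 1 higher and 0 lower, and DESeq2 4 higher and 1 lower. Among p53 and its targets, 26 genes, Tnfrsf10b alone was called (4 were higher without C40 replicate 1), and Mdm2 stood at 202 and 220.3 CPM in C40 against 242 and 259 in I60 (limma adjusted p = 0.52). Cdkn2a, which encodes the cell cycle inhibitors p16 and Arf, was 2.64-fold higher (17.1 and 14.2 CPM in C40, 44.7 and 39.1 in I60), lost without I60 replicate 1 or 2 (limma adjusted p up to 0.124). Hspb1, a small heat shock protein, was 3.31-fold higher (limma adjusted p = 0.00229). Of 22 interferon and antigen presentation genes, 3 were lower and 2 higher, with 6 higher without C40 replicate 1 and 1 lower without I60 replicate 1. H2-K1, a class I antigen presentation gene, had 81.6 and 124 CPM in C40, 18.04 and 20.8 in I60 and 115 and 149.7 in PBS, 5.09-fold lower (limma adjusted p = 0.00172); its reads may be shared with near-identical class I genes, so that its value is uncertain. The 2 higher genes, Oas3 and Tap1, lost their calls when a PBS or an I60 library was left out, and Tap1 also without C40 replicate 2 (limma adjusted p up to 0.172 and 0.215).

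Snrpn and Snurf, which overlap, had the same 523 reads in C40 and 0 in I60, and cannot be told apart. All 22 tested gamma protocadherins, surface proteins made from a cluster of first exons joined to shared last exons, were lower by 1.42 to 1.47 on the log2 scale. Their values within a library are alike, the calls were lost when a PBS or an I60 library was left out for Pcdhga1 and Pcdhgc3 (limma adjusted p up to 0.14 and 0.204), and the counting of reads in shared exons is not stated in the sources used here. They are uncertain as 22 separate calls, and 638 genes were lower without them. That number still holds Gm37013, Gm38666 and Gm38667 of the same chromosome 18 run, each at a log2 difference of -1.46. Whether these share the same reads was not tested.

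Markers of other cell types were checked beside these lists. Of 10 fibroblast markers, Lum, Fap and Thy1 had 0 reads in C40 and I60, and the summed level of the list was 899 and 229 CPM in C40, 568 and 548 in I60 and 7.11 and 6.16 in PBS. Of 14 immune markers, 7 had 0 reads in both lines (among them Cd3e, Adgre1 and Tyrobp), and the sum was 31.9 and 31.9 CPM in C40, 50.1 and 62.6 in I60 and 33.2 and 34.4 in PBS. Cd68 was 4.97-fold higher in I60 (limma adjusted p = 0.00457) and Csf1r 2.89-fold higher, the latter lost on leaving out any library other than C40 replicate 1 (limma adjusted p up to 0.253). Endothelial markers summed to 20.1 and 22.2 CPM in C40 and to 30.9 and 25.5 in I60, with Emcn and Cldn5 at 0 reads. Of 13 muscle markers Myod1, Myog and Myf5 had 0 reads in both lines, and the sum was 69.9 and 104 CPM in C40, against 25.9 and 36.3 in I60, where Tnnt2 was 3.15-fold lower (lost without I60 replicate 1, limma adjusted p = 0.0877). Neural and glial markers summed to 142 and 207 CPM in C40 and 23.7 and 35.9 in I60, where Ncam1, Tubb3 and Mbp were lower. Ncam1 lost its call without I60 replicate 1 (limma adjusted p = 0.0652) and Tubb3 without C40 replicate 2 or either I60 replicate (up to 0.235). The summed epithelial list was 5812 and 5289 CPM in C40, 4975 and 4967 in I60, and 13090 and 13504 in PBS, and in I60 Krt8 and Krt18 gave most of it. The part of these markers in the results was not tested.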

How the data were processed

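RNA of Py2T cells was measured by sequencing total RNA after removal of ribosomal RNA, in 6 libraries of 3 groups, 2 each; every label describes 2 depletion kits, and which library used which is not clear, so that kit and group could not be compared. The authors aligned reads with STAR to mm10, per the submitters' processing notes, and deposited CPM per gene. Not given in the sources used here were the version of STAR, the counter, the annotation and the setting for strand. The deposited CPM values were whole multiples of 1 read within 0.01 for 100% of values, so reads were recovered, 48113692 to 60260520 a library, where 1 read is 0.0166 to 0.0208 CPM. Symbols and positions came from RefSeq GRCm38.p6 (24374 rows matched, 7 named through GENCODE alone, 73 without a symbol).

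Genes with at least 1 CPM in 2 libraries were kept. limma 3.58.1 (R 4.3.3) fitted a trended 3-group model to log2(CPM + 0.5) of all 6 libraries, with 3 residual degrees of freedom, two-sided tests and Benjamini-Hochberg adjustment over 11524 genes. All 6 libraries entered, so that the spread within groups is shared. Alternatives were other pseudocounts, filters and library sets, TMM, library weights, a replicate block, edgeR 4.0.16 and DESeq2 1.42.0 on recovered reads, and each library left out with the gene set kept. Intervals of read ratios are exact (SciPy 1.17.1) and cover counting error only. Scripts were tested on simulated data. Genes were named by rule: the 10 largest rises and 10 largest falls with at least 5 CPM in the higher line, up to 4 called genes of each list with at least 2 CPM there, fixed anchors (Cdh1, Vim, Prdx1 and others), and genes with 0 reads in 1 line; other list members where their list is described. The members, lists and tests were chosen with earlier results of these data known. Some genes that the rule names are not reported here.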

Additional observations from a re-analysis of the deposited data

Results flagged for a closer look

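In 11 of the 154 named genes the 2 lines had moved to opposite sides of PBS. For these, limma called C40 against PBS in 1 direction and I60 against PBS in the other, and called I60 minus C40 as well. The comparisons of C40 and of I60 against PBS share the PBS libraries. Their calls were not repeated with libraries left out, and some lay near the threshold. For C40 against PBS, limma adjusted p was 0.0407 for Adgre5, 0.0407 for Adgrg1 and 0.0418 for Plxna3. For I60 against PBS it was 0.0388 for Prrx1, 0.0392 for Tpm2 and 0.0284 for Plxna3. Named genes were picked mainly for called differences between the lines, which favours such genes. The number among all genes tested is not given here.

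In 5 genes C40 was low and I60 high. The log2 difference of I60 minus C40 was 5.33 for the adhesion receptor Adgre5 and 2.48 for Adgrg1, 2.47 for the AMP deaminase Ampd3, 1.62 for the death receptor Tnfrsf10b and 3.37 for the tropomyosin Tpm2. Tpm2 averaged 9.54 CPM in C40, below the 58.0 of PBS, and 102 in I60, above it.

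In the other 6 C40 was high and I60 low. The difference was -5.18 for Efemp2 (fibulin 4), -4.79 for the interleukin 18 receptor Il18r1, -3.75 for the transcription factor Prrx1 and -1.49 for the semaphorin receptor Plxna3. It was -3.87 for Ckap4 and -3.72 for Lysmd2, which had 0 reads in I60, so that these 2 fitted values depend on the pseudocount. The call of Plxna3 between the 2 lines was lost without I60 replicate 1.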

How the results depend on the processing

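None of the 143 called genes among the 154 named changed sign in any alternative run; 3 that were not called (Cat, Zeb1 and Zeb2) did so with 1 library left out. Of the called, 83 kept their call with each library left out in turn. Most losses came without I60 replicate 1 (54) or 2 (51). With the C40 and I60 libraries alone, genes lower numbered 418, receptors higher 12 and metabolic genes lower 8. DESeq2 gave 1064 genes lower and 24 metabolic genes lower. Leaving out single libraries gave 140 to 832 genes higher and 249 to 937 lower, 6 to 38 receptors higher and 15 to 41 lower, 2 to 23 matrix genes higher and 17 to 30 lower, and 4 to 51 metabolic genes higher and 7 to 19 lower. A replicate block gave 472 genes higher and 781 lower. It changed the call of 1 named gene, Snai2 (limma adjusted p = 0.0322). The labels do not say what a replicate number marks, so the numbers were not taken as pairs; replicate differences of C40 and I60 correlated across genes at r = 0.438, those of PBS and C40 at 0.154 and of PBS and I60 at 0.105. The other counts over pseudocounts, filters, TMM, weights and edgeR stayed within 1.5 times. The cause of these shifts was not tested. A pair of alternatives were added after the data were seen: 348 genes were higher without the chromosome 4 stretches, and 638 lower without the gamma protocadherins. Depth limits genes under about 3 reads a group; with 2 libraries a group the spread between them limits the rest.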

Other observations

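Of 10 tested genes with a Pde symbol, most of which encode phosphodiesterases of cyclic nucleotides, 4 were higher in I60 (40.0%, against 3.51% of all genes tested) and 0 lower (against 5.73%), with 0 lower by edgeR and at an unadjusted p below 0.05 too. Pde5a had 0.104 and 0.0552 CPM in C40 against 3.75 and 4.00 in I60 (7.55-fold, limma adjusted p = 0.000624), and Pde4a was 4.55-fold higher (limma adjusted p = 0.00348). Pde2a and Pde8a were higher too, and lost their calls without I60 replicate 1 (limma adjusted p = 0.0907) and without I60 replicate 1 or 2 (up to 0.172). The family was picked after its values were seen.

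Sox2, a transcription factor of stem and neural progenitor cells, had 0.229 and 0.110 CPM in C40, 9.74 and 7.42 in I60 and 0.158 and 0.266 in PBS (13.5-fold higher, limma adjusted p = 0.000299). The long noncoding RNA gene Lncenc1 was 9.01-fold higher (limma adjusted p = 0.000624). Slc2a9, a urate transporter, was 7.09-fold higher (limma adjusted p = 0.00145). These genes were named after their values were seen.

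Some other families held few calls: 0 of 45 complex I genes and 0 of 47 proteasome genes were called by limma or edgeR. At an unadjusted p below 0.05, limma gave 2 higher and 1 lower in the first family and 3 higher and 1 lower in the second. Of 76 mitochondrial ribosomal protein genes, Mrpl37 was higher and Mrpl15 lower. Both lie in runs of called genes described above, Mrpl37 on chromosome 4 and Mrpl15 on chromosome 1. Of 192 solute carriers, 10 were higher and 6 lower (5.21% and 3.12%), near the shares of all genes tested.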
